A study of Chlorocebus aethiops vervet with 14 samples.

Results

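Magnocellular (M) and parvocellular (P) relay neurons of the vervet monkey lateral geniculate nucleus were set against each other from laser-captured cell bodies. The members are 6 of the 14 arrays of the series, chosen by their titles: 3 arrays of M neurons and 3 arrays of P neurons. The animals were normal adult male vervet monkeys (Cercopithecus aethiops) with no treatment, and each group came from 3 individual animals. Cells were picked under a cresyl violet stain, with roughly 3000 laser pulses per sample, and their RNA was amplified in a pair of rounds before hybridization to the Rhesus Macaque Genome Array. A further 6 rhesus arrays of whole M layers (3) and whole P layers (3), captured with neuropil and glia, entered the same fit and are given beside the neurons. Each sample is thus a pool of many cell bodies from 1 animal, and vervet RNA was read on rhesus probes. The labels do not say whether the same animals supplied M and P samples.

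The lateral geniculate nucleus passes retinal signals to the visual cortex. M relay cells are large, take input from parasol ganglion cells, and carry fast, transient, achromatic signals. P relay cells are smaller, take input from midget ganglion cells, and carry sustained signals with fine detail and red-green colour. Smaller koniocellular relay cells lie between and within these layers, and local inhibitory interneurons are found throughout, so a captured cell body of either layer need not be an M or a P relay cell.

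Values are MAS5 signals, a linear intensity per probe set, and a difference is the M mean minus the P mean of log2(signal + 16) with its standard error (SE). The samples carry the numbers 1 to 3 in their titles, and these numbers entered the fit as pairs. Calls were made where the adjusted p was under 0.05 (limma, Benjamini-Hochberg over all probe sets tested). The added 16 holds down the differences of dim probe sets, and the number of arrays limits the precision. Median signal per neuron array ran from 12.51 to 14.8, and the brightest probe set of each array from 10369 to 11766. Log2 signals of M and P neuron arrays correlated at 0.966 to 0.974 across probe sets, beside 0.97 to 0.975 between arrays of a single group. A lower signal can come from fewer cells that hold an RNA or from less of it in each cell, and these cannot be told apart in captured pools.

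The captures were checked against marker genes. Over 12 tested markers of thalamic relay cells and neurons, the summed signal was 42442 to 48109 in M neurons and 41754 to 43055 in P neurons, against 34045 to 37360 in M layers and 31426 to 37596 in P layers. TCF7L2, a transcription factor of thalamic relay cells, had 5676, 4565 and 4418 in M neurons 1 to 3, against 5395, 5708 and 5643 in P neurons 1 to 3. The groups overlapped (-0.20 ± 0.12, SE, adjusted p = 0.697). Glial RNA was also present: MBP, a myelin protein gene, averaged 5211 ± 1082 in M neurons and 5506 ± 550 in P neurons (SD, n = 3 each). In whole layers MBP averaged 5850 ± 108 in M and 6273 ± 556 in P (SD, n = 3 each), close to the neurons. Sums over 13 tested astrocyte markers were 11310 to 16380 in M neurons and 12039 to 13556 in P neurons. Sums over 13 oligodendrocyte and myelin genes were 10305 to 13624 in M neurons and 11878 to 12848 in P neurons. Over 12 microglial markers they were 1290 to 1988 in M neurons and 1357 to 1588 in P neurons, and over 13 vascular markers 835 to 1051 in M neurons and 930 to 1183 in P neurons. The 6 inhibitory interneuron markers summed to 431 to 1077 in M neurons and 452 to 711 in P neurons, with M neuron 2 the lowest of its group. M and P neurons overlapped in each of these sums. Astrocyte sums were 18069 to 18717 in M layers and 14328 to 16175 in P layers. Oligodendrocyte sums were 13822 to 14952 in M layers and 13735 to 15539 in P layers. Microglial sums were 1298 to 1713 in M layers and 1202 to 1431 in P layers, which overlapped with captured neurons. Vascular sums were 1216 to 1840 in M layers and 1357 to 1705 in P layers. Interneuron sums were 1113 to 1373 in M layers and 627 to 728 in P layers. Of the koniocellular markers PENK and BCHE were tested, with sums of 4633 to 5370 in M neurons and 5449 to 6078 in P neurons. These sums did not overlap, whereas PENK alone did, and the median difference of the pair was -0.14 on brightest probe sets but 0.21 as a mean over probe sets. CAMK2A lay below the signal filter and CALB1 was not analysed here.

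Of 26383 probe sets tested, 189 were called between M and P neurons (0.716%), 71 of them higher in M (0.269%) and 118 lower in M (0.447%). An unadjusted p under 0.05 was reached by 2381 probe sets (9.02%). The called probe sets carry the symbols of 108 genes, and 73 of them carry no symbol. When each named gene was represented by its brightest probe set, 86 of 10030 genes were called (0.857%), with 30 higher (0.299%) and 56 lower (0.558%) in M neurons. Groups did not overlap in 168 of the 189 called probe sets, where 2998 of all tested probe sets (11.4%) had groups that did not overlap. Without the title number in the fit the count was 78 probe sets, 27 higher and 51 lower in M. The median difference over all tested probe sets was 0.01. Gene lists used below were put together with earlier results of these data known. Their counts of called genes are descriptions and show no enrichment of a family.

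**Figure D1:**
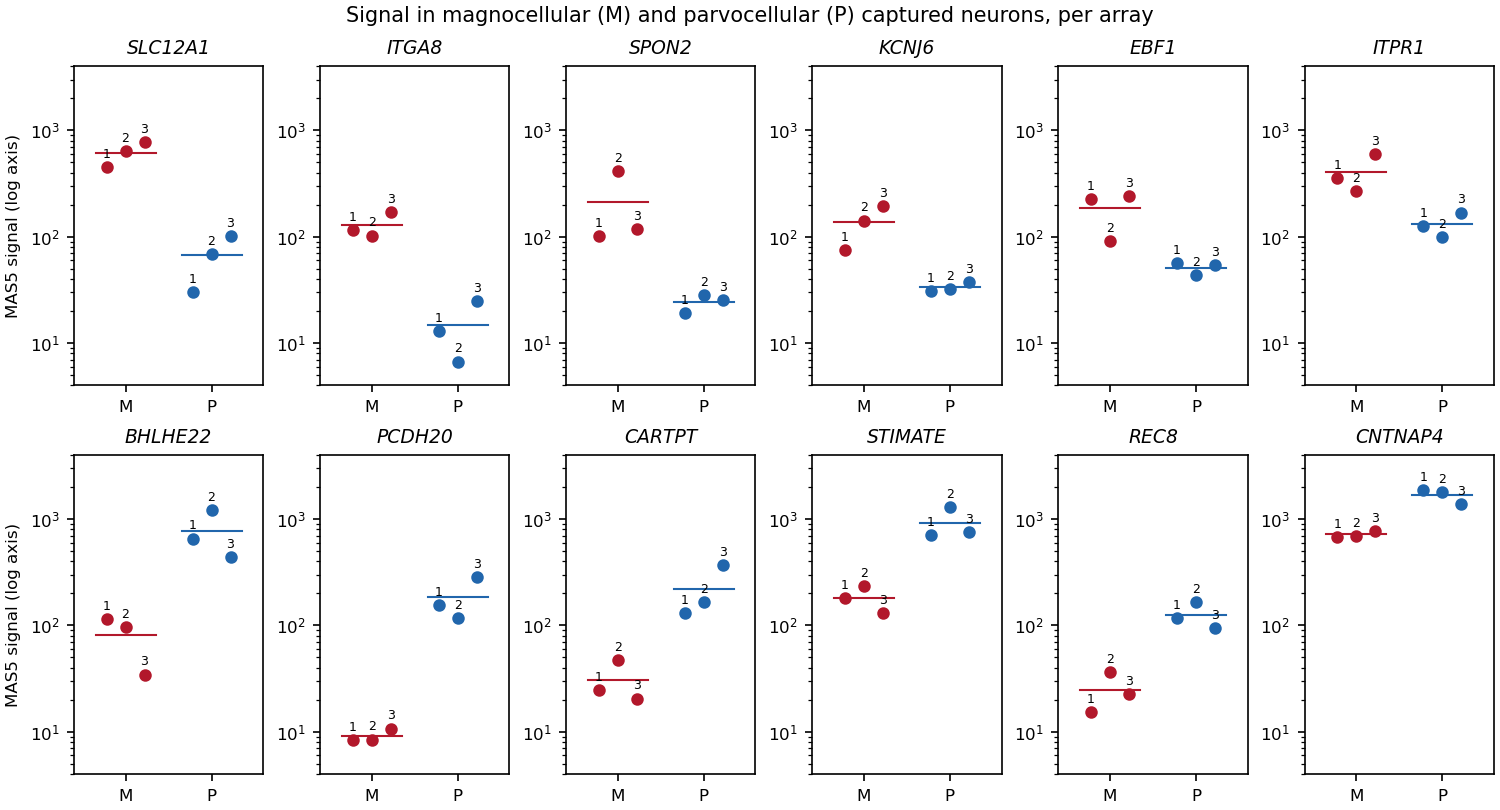
Signal of 12 called genes in each of the 6 neuron arrays, on a log axis, with M neurons in red at the left and P neurons in blue at the right of each panel. Numbers beside points are the title numbers and horizontal lines the group means. The 3 M points lie above the 3 P points in the upper row and under them in the lower row. The rule for naming genes required this of every gene shown except CNTNAP4.

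The named gene with the largest difference in the M direction was an ion transporter. SLC12A1 encodes a sodium-potassium-chloride cotransporter that brings chloride into cells and is best known from the kidney. Its signal was 449, 637 and 769 in M neurons 1 to 3, against 30.0, 68.1 and 102 in P neurons 1 to 3. Every M array lay far above every P array. The difference was 3.01 ± 0.23 (SE, adjusted p = 9.78e-10), which is 8.06-fold on the scale of the fit. Whole layers had 2.78 ± 0.23. Among 26 tested cation-chloride cotransporters and ion pumps SLC12A1 was the only member called, in either direction. SLC12A5, the neuronal chloride extruder, had a difference of 0.34 (adjusted p = 0.492), and the list's median was 0.13, beside 0.02 over all named genes.

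Potassium channel subunits were called higher in M neurons on 2 of 35 tested genes, where 0.857% of all named genes were called. KCNJ6 encodes a subunit of G protein-gated inward rectifier channels, which hyperpolarize neurons when transmitters act on certain receptors. It read 75.1, 142 and 195 in M neurons 1 to 3, against 30.8, 32.3 and 37.3 in P neurons 1 to 3. P arrays were tightly grouped and lay under all M arrays, with a difference of 1.55 ± 0.22 (adjusted p = 9.65e-05). KCNF1, a modulatory subunit of voltage-gated potassium channels, had 65.6, 44.0 and 55.7 in M neurons 1 to 3, against 8.48, 27.2 and 26.4 in P neurons 1 to 3. Its difference of 0.99 ± 0.24 stood close to the threshold (adjusted p = 0.0463) and was not called without the pairing (adjusted p = 0.0956). Without P neuron 1, the dimmest array for this gene, it was 0.66 (adjusted p = 0.481). The other 33 potassium channel genes were not called, and they included KCNA2, a subunit of the fast delayed rectifier of axons (0.34 ± 0.13, adjusted p = 0.337), KCNC1 of fast-spiking cells (0.54, adjusted p = 0.332) and KCNB2 at the low end (-0.83, adjusted p = 0.0597).

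Calcium handling held a large difference in each direction. ITPR1 encodes a calcium release channel of the endoplasmic reticulum that opens on inositol trisphosphate. Its brightest probe set read 357, 268 and 593 in M neurons 1 to 3, against 125, 98.5 and 168 in P neurons 1 to 3. All M arrays lay above all P arrays (1.48 ± 0.21, adjusted p = 9.11e-05). Of its other 3 probe sets, 2 were called at 1.12 and 1.27, and the dimmest stood at 0.68 (adjusted p = 0.313). STIMATE, an endoplasmic reticulum membrane protein that promotes store-operated calcium entry through STIM proteins, went the other way. It had 182, 235 and 131 in M neurons 1 to 3, against 701, 1300 and 760 in P neurons 1 to 3. The groups were well apart, with a difference of -2.22 ± 0.19 (adjusted p = 6.62e-09). Both were called among 26 tested genes of calcium stores, pumps and binding proteins, whose median was 0.05. CASQ2, a calcium-binding protein of the sarcoplasmic reticulum, was outside that list and fell by 1.26 ± 0.27 (adjusted p = 0.0149) in M neurons, where it read 1.79 to 12.7, against 23.0 to 64.8 in P neurons. Its call was lost without the pairing (adjusted p = 0.0927). PVALB, a calcium buffer found in M and P relay cells alike, averaged 5769 ± 1491 in M neurons and 5691 ± 1675 in P neurons (SD, n = 3 each), with a difference of 0.03 ± 0.15 (adjusted p = 0.985).

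Matrix and integrin genes were called on 3 of 37 tested members (0.857% of all named genes), each higher in M neurons. ITGA8, the alpha subunit of an integrin receptor for RGD-containing matrix proteins, had 116, 102 and 170 in M neurons 1 to 3, against 12.9, 6.69 and 25.0 in P neurons 1 to 3. No P array came near the M arrays (2.25 ± 0.20, adjusted p = 1.77e-08). SPON2, a secreted matrix protein of the spondin family, read 102, 416 and 118 in M neurons 1 to 3, against 19.3, 28.4 and 25.3 in P neurons 1 to 3. M neuron 2 was several times brighter than the other M arrays, and all M arrays lay above the P arrays (2.24 ± 0.31, adjusted p = 7.59e-05). TLL1, a metalloprotease that processes matrix proteins and BMP antagonists, had 227, 206 and 264 in M neurons 1 to 3, against 75.9, 101 and 53.7 in P neurons 1 to 3 (1.44 ± 0.23, adjusted p = 0.000588), again with no overlap. The other 34 members were not called, and the list's median was -0.01. NDST4, an enzyme that sulfates heparan sulfate chains, rose by 1.26 ± 0.27 (adjusted p = 0.0153), with 62.8, 23.2 and 18.4 in M neurons 1 to 3, against 1.20 to 5.57 in P neurons. That call was lost without the pairing (adjusted p = 0.0603).

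Adhesion molecules of the cadherin group were called on 2 of 20 tested members (0.857% of all named genes), each lower in M neurons. PCDH20, a protocadherin, read 8.37, 8.46 and 10.7 in M neurons 1 to 3, against 157, 117 and 283 in P neurons 1 to 3. The M values lay under the median signal of their arrays, and the P values were more than 10 times higher. The difference was -2.92 ± 0.23 (adjusted p = 1.98e-09). CNTNAP4, a contactin-associated protein of the neurexin superfamily that was listed with them, had 682, 697 and 775 in M neurons 1 to 3, against 1869, 1807 and 1370 in P neurons 1 to 3. The groups did not overlap (-1.20 ± 0.17, adjusted p = 0.000144), while a second, much dimmer probe set stood at -0.19 (adjusted p = 0.893). ST8SIA4, which adds polysialic acid to the adhesion molecule NCAM, was called on both of its probe sets, at -1.49 ± 0.22 and -1.48 ± 0.20. On the brighter, M neurons 1 to 3 read 46.8, 21.3 and 98.2, against 214, 91.8 and 221 in P neurons 1 to 3. M neuron 3 overlapped with P neuron 2 there, and the call was lost without the pairing (adjusted p = 0.0808). CGNL1, a protein of cell junctions, was higher in M neurons with 148, 137 and 125 in M neurons 1 to 3, against 55.9, 49.0 and 58.4 in P neurons 1 to 3 (1.12 ± 0.21, adjusted p = 0.00316).

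Transcription factors were called on 3 of 42 tested members, where 0.857% of all named genes were called. BHLHE22, a basic helix-loop-helix factor that shapes the identity of cortical and retinal neurons in mice, read 114, 96.9 and 34.5 in M neurons 1 to 3, against 655, 1214 and 442 in P neurons 1 to 3. Even the dimmest P array exceeded the brightest M array by more than 3 times. Its difference of -3.00 ± 0.21 (adjusted p = 1.78e-10) was 7.99-fold in favour of P neurons on the scale of the fit. EBF1, an early B-cell factor that also acts in neuronal differentiation, was higher in M neurons, with 226, 91.4 and 239 in M neurons 1 to 3, against 56.2, 43.4 and 54.3 in P neurons 1 to 3. M neuron 2 was the lowest of its group and still lay above all P arrays (1.49 ± 0.21, adjusted p = 9.11e-05). A second EBF1 probe set had 0.72 ± 0.24 in neurons (adjusted p = 0.244) and 1.44 in whole layers (adjusted p = 0.00164).

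FOXP2, a forkhead factor expressed in thalamic neurons, gave an unsettled result. One of its 2 probe sets read 10.1, 11.1 and 7.36 in M neurons 1 to 3, against 20.0, 109 and 58.6 in P neurons 1 to 3, and was called (-1.45 ± 0.26, adjusted p = 0.00287). The other, with nearly the same mean signal, had 23.3, 37.8 and 5.16 in M neurons 1 to 3, against 23.0, 10.9 and 14.8 in P neurons 1 to 3, and a difference of 0.16 ± 0.27 (adjusted p = 0.937). The called probe set lost its call without the pairing (adjusted p = 0.0682), and its difference was -0.50 when P neuron 1 stood alone for the P group. MYB, a transcription factor of progenitor cells, was outside the list and fell by 1.27 ± 0.22 (adjusted p = 0.00151), with 14.3 to 17.4 in M neurons and 45.5 to 70.0 in P neurons. Of the 42 listed factors 32 had a difference below 0, beside 46.5% of all named genes. The list's median was -0.08 in neurons, but 0.15 at title number 1 and 0.06 in layers.

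Peptide and monoamine signalling held 2 genes that fell in M neurons on their brightest probe set. CARTPT, the precursor of the CART neuropeptides, read 24.7, 47.6 and 20.5 in M neurons 1 to 3, against 131, 166 and 366 in P neurons 1 to 3. The lowest P array was well above the highest M array (-2.25 ± 0.32, adjusted p = 9.11e-05). CARTPT was the only gene called among 11 tested neuropeptide genes. PENK, the proenkephalin precursor, was bright in M neurons at 4039 ± 370 and in P neurons at 4558 ± 262 (SD, n = 3 each; -0.18, adjusted p = 0.759), while a second, dimmer probe set of PENK was called higher in M neurons (1.11 ± 0.24, adjusted p = 0.0144). HRH1, the histamine H1 receptor through which histamine depolarizes thalamic neurons, had 2.40, 17.4 and 19.2 in M neurons 1 to 3, against 22.1, 69.0 and 65.6 in P neurons 1 to 3. These are dim values that did not overlap (-1.20 ± 0.22, adjusted p = 0.0028), and the call was lost without the pairing (adjusted p = 0.151). A second, dimmer HRH1 probe set stood at -0.59 (adjusted p = 0.408). HRH1 was called alone among 21 tested receptors for acetylcholine, monoamines, purines and peptides.

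BDNF, a neurotrophin made by active neurons, read 14.9, 27.3 and 61.9 in M neurons 1 to 3, against 32.4, 110 and 118 in P neurons 1 to 3. Groups overlapped, although M was lower than P at each title number (-0.99 ± 0.23, adjusted p = 0.0299), and without the pairing the adjusted p was 0.54. The other 11 tested immediate early genes were not called, FOS among them (-0.56, adjusted p = 0.381). AGT, angiotensinogen, which in brain is made mainly by astrocytes, had 78.3, 47.5 and 38.6 in M neurons 1 to 3, against 227, 134 and 82.6 in P neurons 1 to 3. It fell by 1.15 ± 0.21 (adjusted p = 0.00277) with no overlap, and without the pairing its adjusted p was 0.235. Most of its list went the other way: of 13 tested astrocyte markers 10 had a difference above 0 and 3 below. Over all named genes 53.5% lay above 0. The list's median was 0.20 in neurons, but -0.06 at title number 2, and 0.25 in layers. None of the 12 markers other than AGT was called, and GFAP, the astrocyte filament gene, had a difference of 0.58 ± 0.17 (adjusted p = 0.155) in neurons. GFAP was called without M neuron 2 (0.72, adjusted p = 0.0415) and with quantile normalization (adjusted p = 0.0334). Whole layers had 1.03 ± 0.17 for GFAP (adjusted p = 0.00164).

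The list of fatty acid binding and lipid handling held 4 called genes of 14 tested, where 0.857% of all named genes were called. This list too was put together with earlier results known, and the count is a description. ST8SIA4, stood on it although it acts on a protein glycan, and the other 3 were CPT1A, higher in M neurons, and FABP4 and FABP3, lower. CPT1A, which carries long-chain fatty acids into mitochondrial oxidation, read 629, 484 and 764 in M neurons 1 to 3, against 326, 297 and 279 in P neurons 1 to 3 (1.00 ± 0.19, adjusted p = 0.00474). FABP4, a fatty acid binding protein known from adipocytes and capillary endothelium, had 1.04, 13.9 and 7.32 in M neurons 1 to 3, against 42.1, 121 and 89.6 in P neurons 1 to 3 (-2.05 ± 0.23, adjusted p = 1.84e-06). FABP3, its relative from heart and neurons, had 137, 90.3 and 124 in M neurons 1 to 3, against 241, 243 and 233 in P neurons 1 to 3 (-0.95 ± 0.19, adjusted p = 0.00849). None of the 3 overlapped between groups. FABP4 also stood on the list of vascular markers, where it was called alone of 13 tested. CLDN5 of endothelial junctions had -0.30 (adjusted p = 0.779) and PECAM1 of endothelial membranes 0.20 (adjusted p = 0.872).

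Further genes lower in M neurons had varied roles. TENT5A, a non-canonical poly(A) polymerase, read 13.5, 1.79 and 16.7 in M neurons 1 to 3, against 45.9, 146 and 117 in P neurons 1 to 3 (-2.09 ± 0.29, adjusted p = 8.15e-05), with -0.76 on a second, dimmer probe set (adjusted p = 0.226). REC8, a cohesin subunit known from meiosis, had 15.3, 36.1 and 22.5 in M neurons 1 to 3, against 117, 166 and 94.8 in P neurons 1 to 3 (-1.81 ± 0.20, adjusted p = 1.58e-06). DAPK1, a calcium/calmodulin-regulated death-associated kinase, read 60.3, 36.1 and 49.3 in M neurons 1 to 3, against 193, 282 and 131 in P neurons 1 to 3 (-1.71 ± 0.24, adjusted p = 7.59e-05). In all 3 genes the groups were fully apart, which the rule for naming them required. CSRP2, a LIM domain protein, fell by 1.40 ± 0.23, the cell cycle inhibitor gene CDKN2A by 1.30 ± 0.22, the imprinted gene PHLDA2 by 1.28 ± 0.19 and the small membrane protein gene SMIM5 by 1.24 ± 0.21. Adjusted p-values of these 4 lay between 0.0002 and 0.00149, and PHLDA2 had 0.0975 without the pairing.

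Other genes higher in M neurons were dim to moderate in signal. PEBP4, of the phosphatidylethanolamine-binding family, rose by 1.23 ± 0.22 (adjusted p = 0.0028), with 0.10 on a second probe set (adjusted p = 0.951). CFAP184, a cilium- and flagellum-associated protein, rose by 1.15 ± 0.21 (adjusted p = 0.00234). MTRES1, a mitochondrial transcription rescue factor, rose by 1.40 ± 0.30 (adjusted p = 0.0159) and the galectin-like LGALSL by 1.06 ± 0.23 (adjusted p = 0.02). These last calls were lost without the pairing, with adjusted p = 0.0922 for MTRES1 and 0.0604 for LGALSL. MTRES1 read 16.4, 30.8 and 69.3 in M neurons 1 to 3, against 6.53, 0.798 and 2.68 in P neurons 1 to 3.

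**Figure D2:**
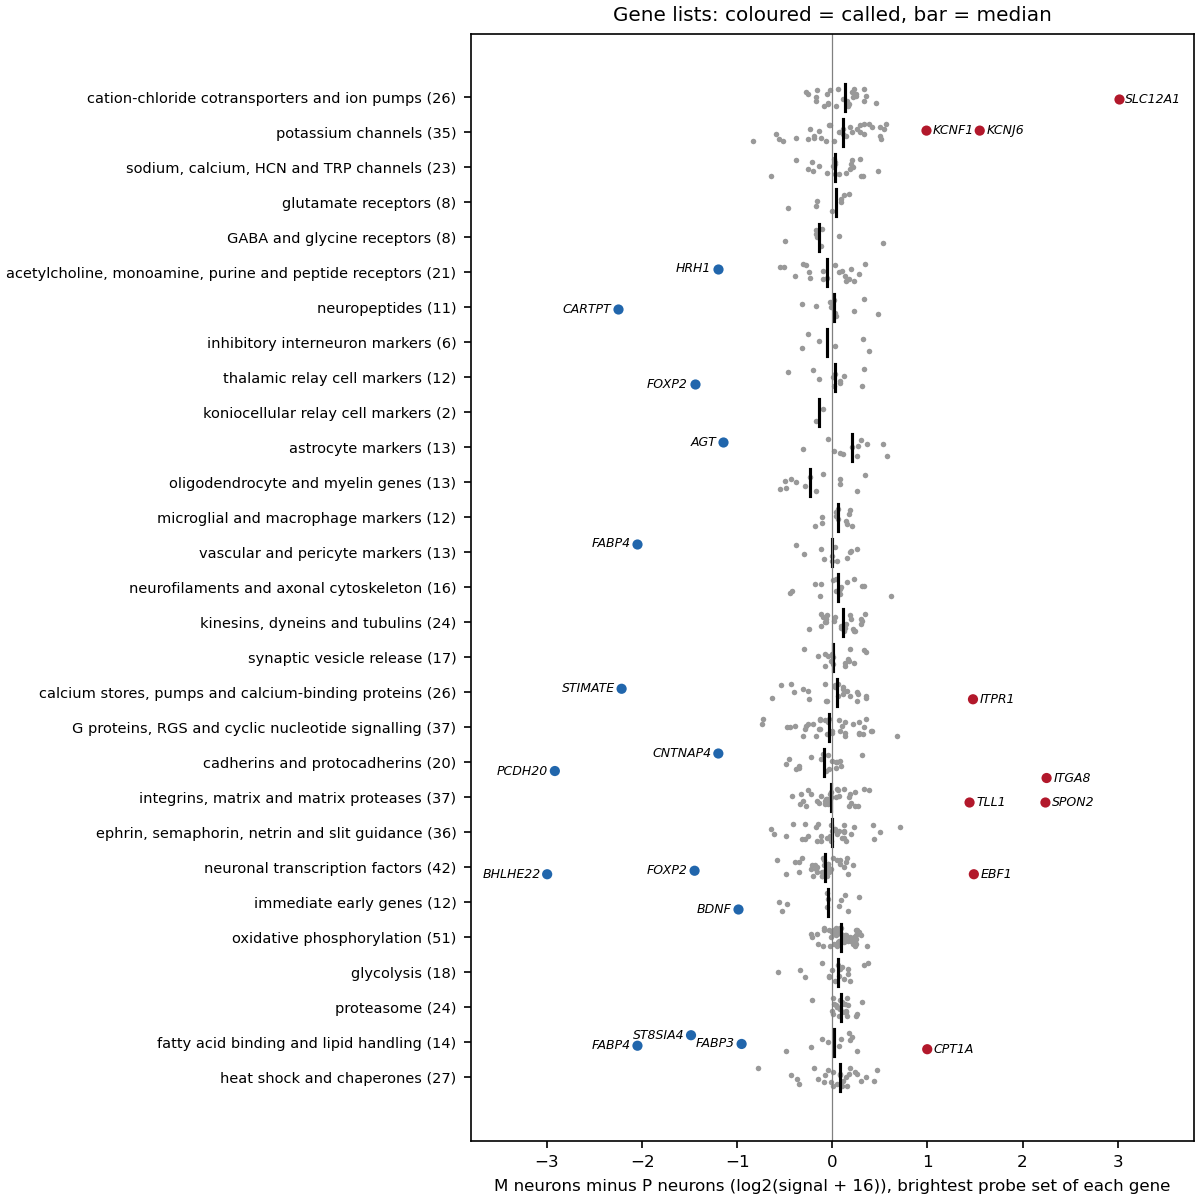
Difference between M and P neurons, on the log2(signal + 16) scale, of each tested gene in 29 lists, on its brightest probe set, with the number tested in brackets. Large red points are called higher in M, large blue points called lower, grey points not called, and black bars list medians. Called genes run from SLC12A1 at 3.01 to BHLHE22 at -3.00. They were called by these same differences, so their distance from the other members follows in part from the call.

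Across the 29 gene lists 582 of 1064 listed genes were tested and 21 were called, 15 of these also without the pairing. Since the lists were put together with earlier results of these data known, their share of called genes is a description and is not read against the 0.857% of all named genes. List medians ran from -0.23 for oligodendrocyte and myelin genes to 0.20 for astrocyte markers. The cytoskeletal, oxidative phosphorylation and proteasome lists held no called member. Of 16 neurofilament and axonal cytoskeleton genes none was called, and NEFH, the heavy neurofilament gene that marks large projection neurons, had 10089, 9491 and 9542 in M neurons 1 to 3, against 7835, 6950 and 8754 in P neurons 1 to 3. NEFH did not overlap between groups, and its difference was 0.31 ± 0.11 (adjusted p = 0.282). It was called with only the neuron arrays in the fit (adjusted p = 0.00372) and with quantile normalization (0.23, adjusted p = 0.0239), so the call of NEFH rests on the setting. None of 51 oxidative phosphorylation genes was called; 40 had a difference above 0, beside 53.5% of all named genes. Their median was 0.14 at title number 1, -0.01 at 2 and 0.12 at 3. None of 24 proteasome genes was called; 22 had a difference above 0, with medians of 0.17 at number 1, -0.06 at 2 and 0.22 at 3. Over all named genes these medians were 0.13, -0.14 and 0.07, lowest at number 2 as in both lists, and no direction is read from them. Among 24 kinesins, dyneins and tubulins none was called (median 0.11), with TUBB3, a neuronal tubulin, at 0.35 (adjusted p = 0.387).

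On brightest probe sets no tested glutamate, GABA or glycine receptor gene was called. Of 8 tested glutamate receptor and scaffold genes the largest difference was that of GRIA4, a subunit of AMPA receptors, at -0.47 ± 0.18 (adjusted p = 0.369). Of 8 tested GABA and glycine receptor genes GABRB1, a GABA-A receptor subunit, stood at -0.50 ± 0.17 (adjusted p = 0.254) on its bright probe set, and at -0.84 ± 0.19 on a dimmer one that was called (adjusted p = 0.0279). Among 23 sodium, calcium, HCN and TRP channels SCN2A, a voltage-gated sodium channel, had -0.64 ± 0.21 (adjusted p = 0.217) and CACNA1B, the N-type calcium channel, had 0.48 (adjusted p = 0.485). No member was called on its brightest probe set among 17 genes of synaptic vesicle release, 37 of G protein and cyclic nucleotide signalling, 36 of ephrin, semaphorin, netrin and slit guidance, 18 of glycolysis and 27 heat shock and chaperone genes. The same held for 13 oligodendrocyte genes (median -0.23), 12 microglial genes and 6 interneuron genes, with GAD1, the enzyme of GABA synthesis, at 0.32 ± 0.23 (adjusted p = 0.752). GAD1 rested on M neuron 2, its dimmest array: without it the difference was 0.76 (adjusted p = 0.0476), and over the 6 fits that left out 1 neuron array it ran from 0.08 to 0.76, lowest without P neuron 3.

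**Figure D3:**
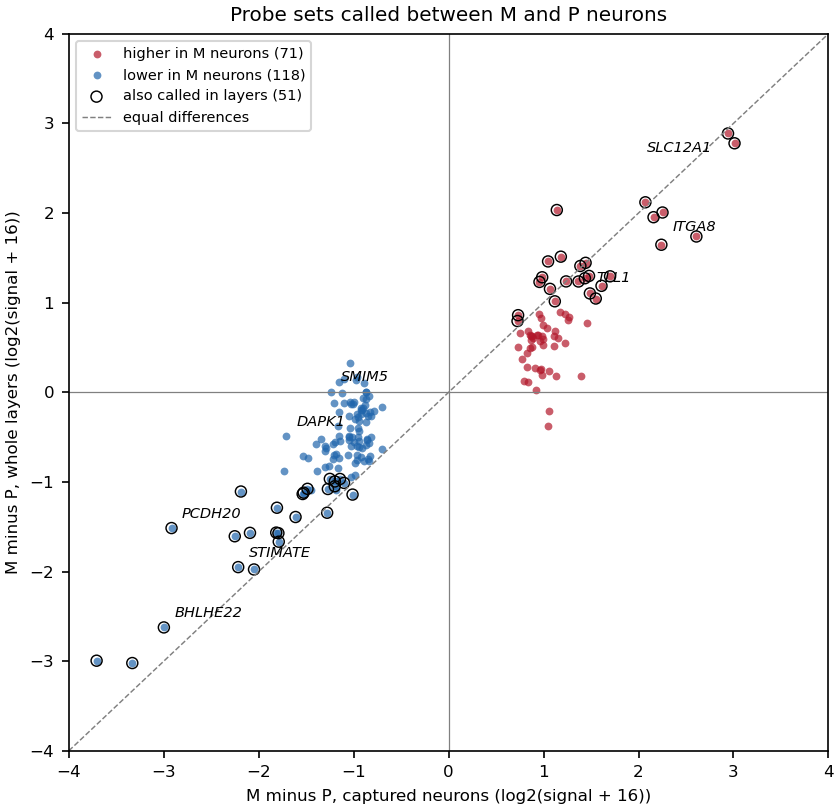
Difference between M and P in whole layers against the difference in captured neurons, both on the log2(signal + 16) scale, for the 189 probe sets called in neurons. Red points are higher and blue points lower in M neurons, black rings mark the 51 also called in layers, and the dashed line marks equal differences. Most points share a sign, and most lie nearer to 0 in layers. The probe sets were chosen by their neuron values, which alone can place them nearer to 0 on other arrays.

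Whole layers were measured on other arrays, which are not independent of the neuron arrays: deviations of same-numbered arrays correlated at 0.136 to 0.194 between M neurons and M layers and at 0.0997 to 0.157 between P neurons and P layers. In layers 89 probe sets were called (0.337%), 53 higher in M (0.201%) and 36 lower in M (0.136%), and 7% had an unadjusted p under 0.05. On brightest probe sets 36 genes were called in layers (0.359%), 15 higher (0.15%) and 21 lower in M (0.209%), and layer groups did not overlap in 11.9% of all probe sets. Of the 189 probe sets called in neurons, 179 had the same sign in layers, where 58.3% of all tested probe sets did, and 51 were called there with that sign. Their median size was 1.05 in neurons, and in layers the median difference, signed by the neuron direction, was 0.62. The probe sets were chosen by their neuron values, and that choice alone makes smaller sizes likely on other arrays. The drop is therefore not read as a weaker difference in layers. PCDH20 read 41.5, 36.6 and 25.6 in M layers 1 to 3, against 110, 113 and 165 in P layers 1 to 3, which gave -1.51 ± 0.23 in layers beside -2.92 in neurons (adjusted p of the change between captures = 0.758). DAPK1 stood at -0.49 in layers (adjusted p = 0.702) and SMIM5 at 0.01 (adjusted p = 0.999). In layers SMIM5 had 51.5 to 82.3 in M and 61.2 to 66.3 in P, against 2.06 to 16.6 in M neurons and 39.9 to 43.4 in P neurons. FABP4 kept its size, with -1.98 ± 0.23 in layers. The change of the M to P difference between neurons and layers was called for 0 of 26383 probe sets by limma (970, or 3.68%, had an unadjusted p under 0.05), so no gene was shown to differ between M and P in 1 kind of capture only.

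Among the 73 called probe sets without a symbol were differences as large as those of the named genes. Probe set MmugDNA.38317.1.S1_at read 120, 31.2 and 45.8 in M neurons 1 to 3, against 919, 933 and 976 in P neurons 1 to 3 (-3.71 ± 0.24). MmugDNA.25280.1.S1_at had 221, 143 and 115 in M neurons 1 to 3, against 1748, 1786 and 1567 in P neurons 1 to 3 (-3.33 ± 0.20). In the other direction MmugDNA.21448.1.S1_at had 360, 224 and 424 in M neurons 1 to 3, against 12.9, 32.5 and 46.3 in P neurons 1 to 3 (2.94 ± 0.24). MmugDNA.19421.1.S1_at had 433, 166 and 244 in M neurons 1 to 3, against 27.0, 21.8 and 41.6 in P neurons 1 to 3 (2.61 ± 0.22). Groups were fully apart in these 4, which were chosen after their values were seen, and their genes are not named here. Of the 108 called genes with a symbol 52 had several tested probe sets, and in 47 of those 52 a single probe set was called. In 20 of the 52 the probe sets differed in sign. LIN7A, a scaffold protein of synapses, was called on 4 of its 6 probe sets (0.94 to 1.07) but not on its brightest (0.14, adjusted p = 0.794). HINT1, a nucleotide hydrolase, was called on 2 of 3 (2.16 and 2.07) and not on its brightest (0.05, adjusted p = 0.978). Both genes were chosen after their values were seen.

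**Figure D4:**
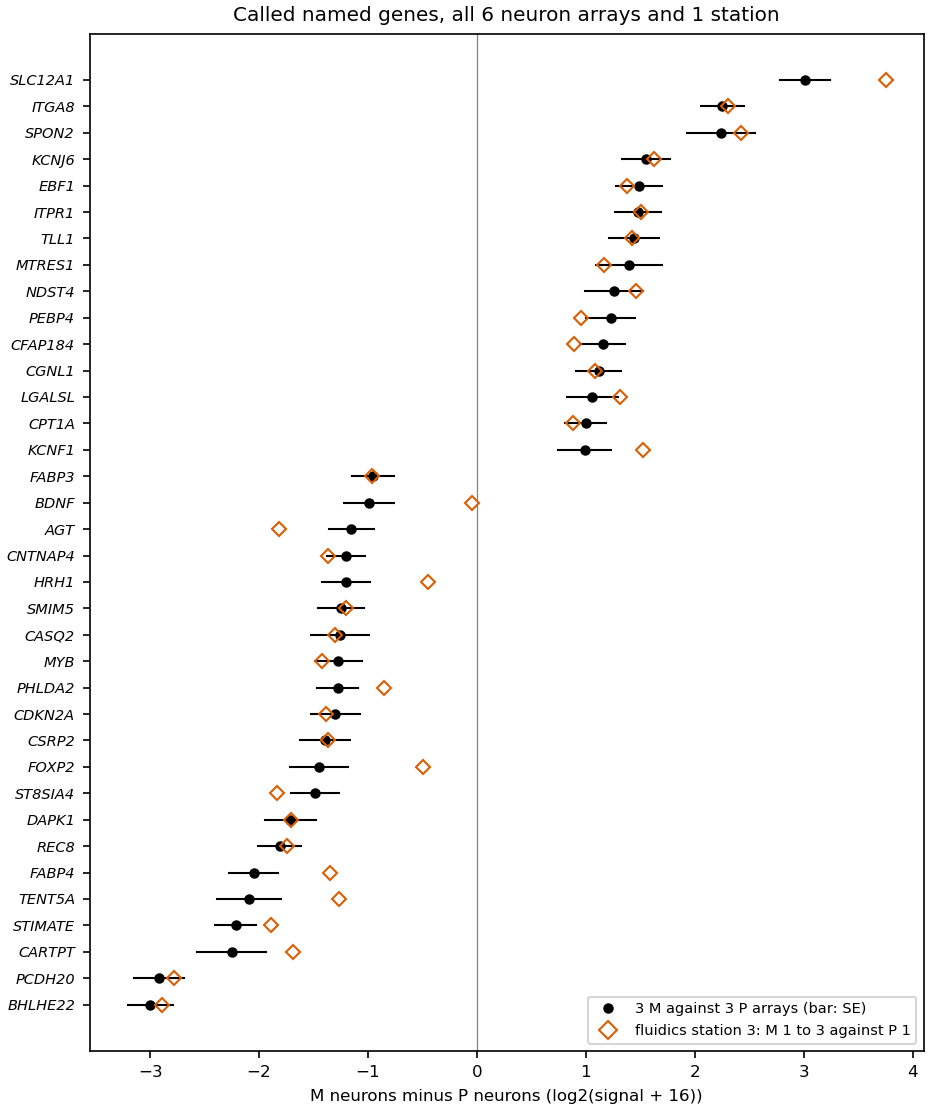
Difference between M and P neurons, on the log2(signal + 16) scale, of the 36 called named genes, from 3 M and 3 P arrays (black points, bars are SE) and from the 4 arrays of fluidics station 3 (open diamonds), where P neuron 1 stands alone for the P group. Diamonds leave out the title number. They share the sign of the black point in every gene, and lie nearest to 0 for BDNF at -0.04. The arrays behind the diamonds are also part of the black points, by which the genes were chosen.

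Instrument records put the 3 M neuron arrays and P neuron 1 on fluidics station 3, and P neurons 2 and 3 on station 4. Within station 3, M neurons could be set against P neuron 1 alone, with the spread of that lone array taken from the other arrays, and a station term in the fit gives the same difference. All 189 called probe sets kept their sign there. The arrays of station 3 also entered the choice of these probe sets, so kept signs and similar sizes follow in part from that choice. They do not measure the part of the station. Of the 36 named genes called, 33 had a station 3 difference at least 0.5 times the full one (median ratio 0.973). The exceptions were BDNF (-0.04 beside -0.99), FOXP2 (-0.50 beside -1.45) and HRH1 (-0.45 beside -1.20). Station 3 differences leave out the title number, so they mix the level of P neuron 1 with the station. With station and title number together, BDNF had -0.65, FOXP2 -0.58 and HRH1 -0.89. With station in place of the title number SLC12A1 (3.75), ITGA8 (2.30), BHLHE22 (-2.89) and PCDH20 (-2.78) were the named genes still called, of 10 called probe sets in all. With station and title number together, 15 of the 36 were called. Beside the genes just named, they were SPON2, EBF1, KCNF1, CARTPT, STIMATE, FABP4, REC8, DAPK1, CSRP2, CNTNAP4 and ST8SIA4. The part of the station in the differences was not tested beyond these values.

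Of the 36 named genes called, 26 were called in each of the 6 fits that left out 1 neuron array. MTRES1 lost its call without M neuron 2 (adjusted p = 0.0693), M neuron 3 (0.218), P neuron 2 (0.12) or P neuron 3 (0.104). NDST4 lost it without M neuron 1 (0.239), P neuron 1 (0.189) or P neuron 2 (0.054), and PEBP4 without M neuron 3 (0.0623) or P neuron 2 (0.0502). LGALSL lost it without M neuron 1 (0.0667), M neuron 3 (0.165), P neuron 1 (0.139) or P neuron 3 (0.193), and CPT1A without M neuron 3 (0.0662) or P neuron 3 (0.0854). KCNF1 was called only when P neuron 2 was left out. FOXP2 lost its call without M neuron 2 (0.0601) or P neuron 2 (0.0974), and FABP3 without P neuron 2 (0.11). CASQ2 lost it without M neuron 3 (0.197, with a difference of -0.84), P neuron 1 (0.0674) or P neuron 3 (0.159). BDNF lost it without M neuron 1 (0.0642), M neuron 2 (0.2), P neuron 2 (0.229) or P neuron 3 (0.159). Sizes of dim genes rest on the added 16: with 1 or 64 in its place, 20 of the 36 differences moved by over 1.5 times. PCDH20 was then -4.11 or -1.72, ITGA8 3.18 or 1.29, SPON2 2.78 or 1.47, FABP4 -3.63 or -1.02 and TENT5A -3.38 or -1.11, while SLC12A1 was 3.32 or 2.40 and BHLHE22 -3.26 or -2.46.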

How the data were processed

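The deposited values are linear intensity, a MAS5 signal for every probe set, per the submitters' processing notes. No MAS5 version or scaling target is given in the sources used here. Dim MAS5 signals carry large relative errors. The rhesus array held 52865 probe sets, 99 of them controls. Of the other 52766, 24956 carry 1 gene symbol, 361 several and 27449 none in the platform annotation, which can be old. No genome was used, and the 2 human arrays were not used. Scanner images and detection calls were not analysed here.

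Signals were not rescaled. Probe sets with a mean over the 12 rhesus arrays of at least the median of all non-control probe sets (12.65) were tested, in all 26383, with 10030 named genes among them. Differences of log2(signal + 16) were fitted with limma 3.58.1 (R 4.3.3) as 4 group means with the title number as a block, and the variance was moderated along an intensity trend (6 residual and 21.92 prior degrees of freedom). All tests are two-sided. Replicates are individual animals per the labels. Deviations of the M and P neuron arrays with the same number correlated at 0.18, 0.211 and 0.182, and 12 of 12 arrays correlated best with their own number. The pairing follows the title numbers, and these correlations were a check of it. No statement in the labels says that same-numbered samples are pairs. Between an M neuron and a P layer array the lowest such correlation was 0.0428.

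Named genes are the 15 called genes higher and the 15 lower in M neurons with the largest difference and no overlap, each gene standing by its brightest probe set. Added are the called members of each list, or else the member with the smallest p, and a marker panel, and list extremes may be named. The members, the lists and the rules were chosen with earlier results of these data known. The alternatives were the fit without the block, only the neuron arrays, a pseudocount of 1 or 64, no signal filter, quantile normalization, centring on the median, no intensity trend, fluidics station, and leaving out each array.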

Additional observations from a re-analysis of the deposited data

How the results depend on the processing

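All 36 named genes called between M and P neurons kept their direction under each alternative run. The count of 189 called probe sets in neurons was 78 without the pairing, 404 with only the neuron arrays in the fit, 90 with no filter on low signals, 521 with quantile normalization and 284 with arrays centred on the median. It was 10 with fluidics station as a block, 41 with station and title number together, 35 within station 3, and 106 to 173 when 1 neuron array was left out (118 without P neuron 1, 106 without P neuron 2 and 123 without P neuron 3). The share higher in M, 37.6%, was 20.7% without M neuron 1, 24.3% without M neuron 3 and 59% without M neuron 2. The count of 89 in layers was 42 without the pairing, 196 with only the layer arrays, 37 with no filter, 308 with quantile normalization (43.8% higher in M, beside 59.6%), 14 with station, 26 with station and title number, 34 within station 5, and 57 to 72 with 1 layer array left out. The change between captures was called for 0 to 1 probe sets when 1 array was left out. The 1 was SMARCD1, with -2.27, -2.14 and -2.18 without M neuron 3, M layer 2 and P layer 2. Quantile normalization ended the call of 0 of the 36 genes, and a pseudocount of 1 or no filter ended 7 each: MTRES1, NDST4, LGALSL, KCNF1, FOXP2, CASQ2 and BDNF. Of the 22 named genes not called, 14 were called under some alternative: 13 with quantile normalization (SCN2A, GRIA4, GABRB1, UGT8, NEFH, TUBB3, PRKG1, CHN1, UQCRQ, GPI, DNAJB4, GFAP and KCNA2), 6 with only the neuron arrays, 2 with centring and 2 without M neuron 2 (GAD1 and GFAP). Among uncalled genes, PVALB, LIN7B and CD68 changed sign. PVALB had -0.0174 with quantile normalization, -0.244 with station or within station 3, -0.00312 with station and title number and -0.0274 to 0.0642 with 1 array left out, lowest without M neuron 3. LIN7B had -0.0446 with station or within station 3 and -0.0458 with station and title number, and CD68 had -0.023 with station and title number and -0.0259 to 0.367 with 1 array left out, lowest without M neuron 1. The causes were not tested. List medians moved by up to 0.232 when 1 array was left out and changed sign in up to 11 of 29 lists, so no direction is read from them. Dim probe sets limit the precision: in 20 of the 189 the M mean and in 13 the P mean was under a signal of 16.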

Other observations

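A few called genes outside the naming rule were picked after their values were seen and are given as values on the log2(signal + 16) scale. INHBA, the beta A subunit of activin, was lower in M neurons (-1.10), as was LRRK2, a kinase linked to Parkinson's disease (-0.84). Higher in M neurons were SPP1, the secreted matrix protein osteopontin (0.77), the zinc finger factor ZNF521 (0.97) and the HMG-box factor TOX2 (0.98). Without the pairing the limma adjusted p was 0.276 for INHBA, 0.111 for LRRK2 and 0.221 for SPP1, so these 3 were not called there, while ZNF521 and TOX2 were.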
